A study of Homo sapiens with 12 samples.

Results

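The cellular antioxidant programme that is governed by the transcription factor NRF2 was examined in SKBR3 and MDA-MB-453 cells, which are HER2 breast cancer lines, after treatment with TWEAK. TWEAK is a cytokine of the TNF superfamily that binds the receptor Fn14. The programme is represented by 39 genes of the 62696 gene identifiers in the count tables. They were listed by name from the regulators of NRF2 and the glutathione, thioredoxin, NADPH, iron and detoxification genes that are known as its targets, and all 39 were found. The list was drawn up with earlier results of these data known. RNA-seq had been done on 4 groups of 3 replicates, namely untreated SKBR3, TWEAK-treated SKBR3, untreated MDA-MB-453 and TWEAK-treated MDA-MB-453. Cells were seeded in DMEM with serum, and 24 h later they went into Opti-MEM for 8 h of starvation. TWEAK was then given at 10 ng/ml for 48 h, with a fresh dose after 24 h. This description stands on the labels of untreated samples as well, and their handling is not given. No transgene or deletion is named in either line, and each line stands for itself alone, so that a difference between them is a difference between these 2 lines. The study describes its RNA-seq replicates as biological.

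NRF2, the product of NFE2L2, is held in the cytoplasm by KEAP1, which hands it to a ubiquitin ligase for degradation. When KEAP1 is modified by oxidants or is sequestered by the autophagy receptor p62, the product of SQSTM1, NRF2 accumulates in the nucleus. There it pairs with a small Maf protein on antioxidant response elements, for which BACH1 and BACH2 compete as repressors, and raises genes that make glutathione and NADPH, store iron and export conjugates. Much of this control acts on the NRF2 protein, which these RNA measurements do not see.

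The libraries held between 24773003 and 35208304 counts. Levels are given as CPM, counts scaled to a common library size with TMM factors over all 12 libraries, and comparisons between genes as CPM per kilobase of exons. Of 8 luminal and HER2 markers, 8 were at 1 CPM or more in MDA-MB-453 and 7 in SKBR3, where CDH1, the epithelial cadherin, was at 0.0404 to 0.29 CPM. Their levels differed between the lines. In untreated libraries ERBB2, the HER2 gene, was at 7408 to 7907 CPM in SKBR3 and 872 to 902 CPM in MDA-MB-453. GRB7, KRT8, KRT18 and KRT19 were also higher in SKBR3, whereas EPCAM, FOXA1 and CDH1 were lower. None of 4 leukocyte markers reached 1 CPM in any group, and the summed level of that list was at most 0.97 CPM. Of 4 fibroblast markers, COL1A1 alone did so, at 16.9 to 20.7 CPM in SKBR3 and 106 to 123 CPM in MDA-MB-453. Of the markers of other cell types with a mean of at least 1 CPM in an SKBR3 group, KRT5 and CDH5 lay higher there with TWEAK without overlap. KRT5, a basal keratin, was at 0.207 to 0.359 CPM in untreated and 2.55 to 4.004 CPM in treated replicates. CDH5, the endothelial cadherin, was at 1.57 to 1.90 and 3.56 to 5.05 CPM. Below 1 CPM in SKBR3, the basal marker TP63 (0.124 to 0.206 and 0.481 to 0.919 CPM), COL1A2 of the fibroblast list (0.0414 to 0.124 and 0.321 to 0.501 CPM) and the endothelial PECAM1, at most 0.0809 CPM, also lay higher without overlap. The 3 endothelial markers summed to 3.89 to 5.10 CPM in untreated and 6.43 to 7.72 CPM in treated SKBR3, the 3 basal markers to 0.414 to 0.683 and 3.55 to 4.85 CPM. In MDA-MB-453 the basal sum was 2.64 to 2.79 CPM without and 3.35 to 3.51 CPM with TWEAK, nearly all of it TP63, while COL1A1 lay lower with TWEAK, at 106 to 113 CPM against 116 to 123 CPM. The part of these markers in the results below was not tested. NFKB2, a known target of TWEAK signalling, rose from 64.7 to 70.5 CPM in untreated SKBR3 to 222 to 253 CPM in treated SKBR3, and from 24.4 to 26.1 CPM to 76.3 to 84.2 CPM in MDA-MB-453. In both lines the library of TWEAK replicate 2 differed from the rest of its group. Its counts differed from those of the other TWEAK-treated SKBR3 replicates with a chi-square per degree of freedom of 21.1 and 23.8, against 1.78 to 5.74 for the other pairs within SKBR3 groups, and in MDA-MB-453 with 10.2 and 5.31, against 2.09 to 2.85. Counts of genes called or apart with TWEAK are also given without it.

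The antioxidant response element was looked for in the promoters, because it is the sequence through which NRF2 and small Maf proteins act. Its core was written as TGACNNNGC and searched on both strands in RefSeq promoter windows of 300 bases, from 250 before to 50 after a transcription start (GRCh38.p14). Windows were found for 29 of the 39 genes. The core was present in at least 1 window of 7 of these 29 genes (24.1%), against 16.1% of all 27305 genes with a window. Counted by window, it was in 8 of the 46 windows of these genes (17.4%), against 13.3% of all 35116 windows. The share by gene also depends on how many windows a gene has. Of the 10 matches in these windows, 9 are shown, and 1 of TXNRD1, whose first base is 8 bases before a start, is left out because its flank runs past the start. They are printed 5′ to 3′ on the strand that carries the core, which is in capitals, with 10 bases on each side. KEAP1 rose with TWEAK in SKBR3, GCLM and TXNRD1 are textbook targets that did not pass the test, and, of the members with a core, GPX2 and MAFF had the largest log2 differences between the untreated lines.
KEAP1, chr19:10502784-10502812, plus strand: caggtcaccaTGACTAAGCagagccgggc
KEAP1, chr19:10502807-10502835, minus strand: acttttattgTGACACGGCgggcgcccgg
GCLM, chr1:93909446-93909474, plus strand: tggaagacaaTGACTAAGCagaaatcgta
TXNRD1, chr12:104215670-104215698, plus strand: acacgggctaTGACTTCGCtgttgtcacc
TXNRD1, chr12:104286920-104286948, minus strand: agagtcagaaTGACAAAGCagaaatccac
GPX2, chr14:64942849-64942877, plus strand: atccccaggaTGACTTAGCaaaaacaggt
MAFF, chr22:38201862-38201890, minus strand: cgcccccgtaTGACCCCGCcccctggaag
PGD, chr1:10398853-10398881, minus strand: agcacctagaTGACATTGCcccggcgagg
EPHX1, chr1:225825266-225825294, plus strand: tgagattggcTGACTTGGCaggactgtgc
The core of KEAP1 whose first base is 31 bases before the start and that of GCLM, 34 bases before it, are the same 9 letters. A match is a description of the sequence and not evidence of binding, and the absence of one says only that these letters are not in these windows. MAFK, SLC7A11, GSR, PRDX1, HMOX1, FTH1, AKR1B10, ABCC1, ABCC3 and SOD1 are not in the table of windows.

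The first comparison asked which of these genes changed when SKBR3 cells were treated with TWEAK. The ferritin heavy chain gene FTH1 rose by 1.07 on the log2 scale, SQSTM1, HMOX1, ABCC3, NFE2L1 and KEAP1 rose by smaller amounts, and GSR fell. Of the 37 members with enough counts to be tested, 8 were higher, 1 was lower and 28 did not pass an adjusted p of 0.1 with edgeR's quasi-likelihood test and Benjamini-Hochberg adjustment over all tested genes. The background was 10.4% of all 15661 tested genes called, 6.6% higher and 3.82% lower. The median log2 fold change of the members was 0.07, against -0.0074 for all tested genes. With TWEAK replicate 2 left out, 14 members were higher and 2 lower, at a background of 17.4%, the additional ones being NFE2L2, BACH1, PGD, SOD2, UGDH and ABCC1 and, on the lower side, NQO1, and with untreated replicate 2 left out 5 were higher and 1 lower, at 5.76%.

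**Figure D1:**
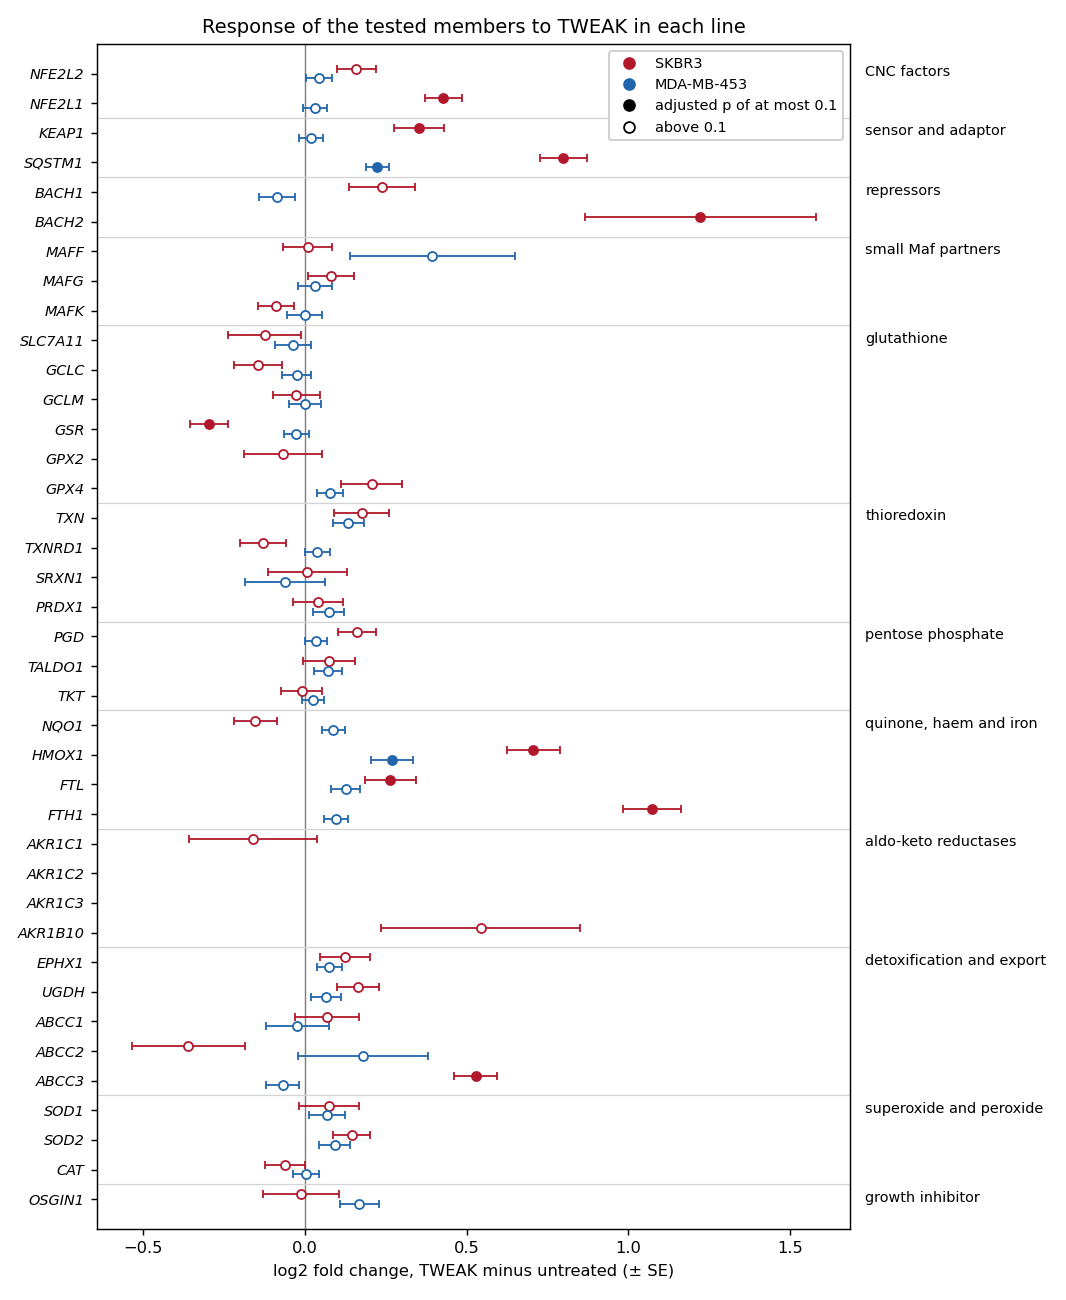
Log2 fold change between TWEAK-treated and untreated replicates (horizontal axis, ± SE) of every tested member in SKBR3 (red) and MDA-MB-453 (blue), ordered by role; filled points passed an adjusted p of 0.1 and members not tested in a line have no point. In SKBR3 the filled points are FTH1 at 1.07, BACH2 at 1.22 with a wide error, SQSTM1, HMOX1, ABCC3, NFE2L1, KEAP1, FTL and, to the left of zero, GSR, and in MDA-MB-453 only SQSTM1 and HMOX1 are filled.

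Among the transcription factors, NFE2L1 rose and NFE2L2 did not pass the test. NFE2L2 (ENSG00000116044.17, chr2:177218667-177392756) encodes NRF2 itself. It was at 71.1, 68.8 and 66.6 CPM in untreated and 77.7, 76.6 and 77.2 CPM in TWEAK-treated SKBR3 replicates, so that all treated libraries lay above all untreated ones. The difference was 0.16 ± 0.06 on the log2 scale (SE, n = 3 per group) with an adjusted p of 0.165 in edgeR's quasi-likelihood test, and it passed without TWEAK replicate 2, in the fit of all 12 libraries and with offsets for GC content and length. Over its 14 alternatives NFE2L2 had adjusted p-values from 0.038 to 0.458. NFE2L1 (ENSG00000082641.16, chr17:48048329-48061545) encodes NRF1, a relative of NRF2 that is known for raising proteasome genes. It was at 132, 135 and 144 CPM without and 185, 184 and 187 CPM with TWEAK. The groups did not overlap, and the log2 fold change was 0.43 ± 0.06 (edgeR quasi-likelihood, adjusted p = 0.000684).

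The sensor KEAP1 and the adaptor SQSTM1 both rose. KEAP1 (ENSG00000079999.14, chr19:10486125-10503558) was at 35.7, 33.6 and 34.1 CPM in untreated and 41.8, 48.5 and 42.2 CPM in treated replicates. Treated libraries were all above untreated ones, with replicate 2 the highest, and the log2 fold change was 0.35 ± 0.08 (edgeR quasi-likelihood, adjusted p = 0.0175). The call on KEAP1 was lost without untreated replicate 2 and held in 13 of 14 alternatives, over which the adjusted p ranged from 0.000622 to 0.109. SQSTM1 (ENSG00000161011.20, chr5:179806398-179838078) was at 413, 404 and 438 CPM in untreated and 706, 802 and 681 CPM in treated replicates. Its lowest treated library was far above its highest untreated one, and the log2 fold change was 0.80 ± 0.07 (edgeR quasi-likelihood, adjusted p = 4.28e-05).

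Of the repressors, BACH2 rose from a very low level and BACH1 did not pass. BACH2 (ENSG00000112182.16, chr6:89926528-90296843), best known from lymphocytes, had 13, 11 and 5 counts in untreated and 28, 15 and 23 counts in TWEAK-treated replicates. The groups did not overlap, but every value rests on fewer than 30 counts. The log2 fold change was 1.22 ± 0.36 (edgeR quasi-likelihood, adjusted p = 0.0695). The call was lost when untreated replicate 1, 2 or 3 or TWEAK replicate 1 or 3 was left out, and it held in 8 of 13 alternatives, with adjusted p from 0.00515 to 0.212. BACH1 (chr21:29194071-29630751), the repressor of HMOX1, was at 34.4, 30.6 and 30.2 CPM and then at 42.4, 31.8 and 38.6 CPM. Its groups overlapped, and the log2 difference was 0.24 ± 0.10 (edgeR adjusted p = 0.226).

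None of the 3 small Maf genes, whose products pair with NRF2, passed the test in SKBR3. MAFF was at 21.3, 20.5 and 22.6 CPM without and 23.0, 21.3 and 20.8 CPM with TWEAK (log2 difference 0.0084 ± 0.08). MAFG was at 58.5, 56.6 and 61.9 CPM and then 63.0, 66.0 and 58.6 CPM (0.08 ± 0.07). MAFK was at 167, 162 and 171 CPM and then 158, 160 and 154 CPM (-0.09 ± 0.06). The groups of MAFF and MAFG overlapped, whereas the treated libraries of MAFK were all below the untreated ones. Their adjusted p-values in edgeR's quasi-likelihood test were 0.966, 0.596 and 0.421, and the call on MAFK was gained with offsets for GC content and length, over alternatives whose adjusted p ranged from 0.0582 to 0.702.

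Of the 4 quinone, haem and iron genes, FTH1, HMOX1 and FTL rose and NQO1 did not pass the test. FTH1 (ENSG00000167996.16, chr11:61959718-61967634), the ferritin chain that oxidises iron for storage, was at 625, 623 and 685 CPM in untreated and 1297, 1556 and 1227 CPM in TWEAK-treated replicates. The groups were far apart, with a log2 fold change of 1.07 ± 0.09 (edgeR quasi-likelihood, adjusted p = 1.98e-05). FTL (ENSG00000087086.15, chr19:48965309-48966879), the ferritin light chain, was at 101, 104.5 and 113 CPM and then 123, 141 and 119 CPM. It rose by 0.26 ± 0.08 on the log2 scale (edgeR adjusted p = 0.0745), with groups that did not overlap. The call on FTL was lost when TWEAK replicate 1 or untreated replicate 1 or 2 was left out and with a replicate block, and held in 9 of 14 alternatives (adjusted p 0.0127 to 0.303). HMOX1 (ENSG00000100292.18, chr22:35380361-35394214), which breaks haem down and frees its iron, was at 11.2, 10.4 and 10.8 CPM in untreated and 16.8, 18.7 and 17.6 CPM in treated replicates. All treated libraries exceeded all untreated ones, and the log2 fold change was 0.71 ± 0.08 (edgeR adjusted p = 0.000276). NQO1, the quinone reductase that is often used as a reporter of NRF2 activity, was at 453, 442 and 465 CPM without and 403, 443 and 381 CPM with TWEAK. Its groups overlapped, and its log2 difference of -0.15 ± 0.07 did not pass (edgeR adjusted p = 0.238).

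**Figure D2:**
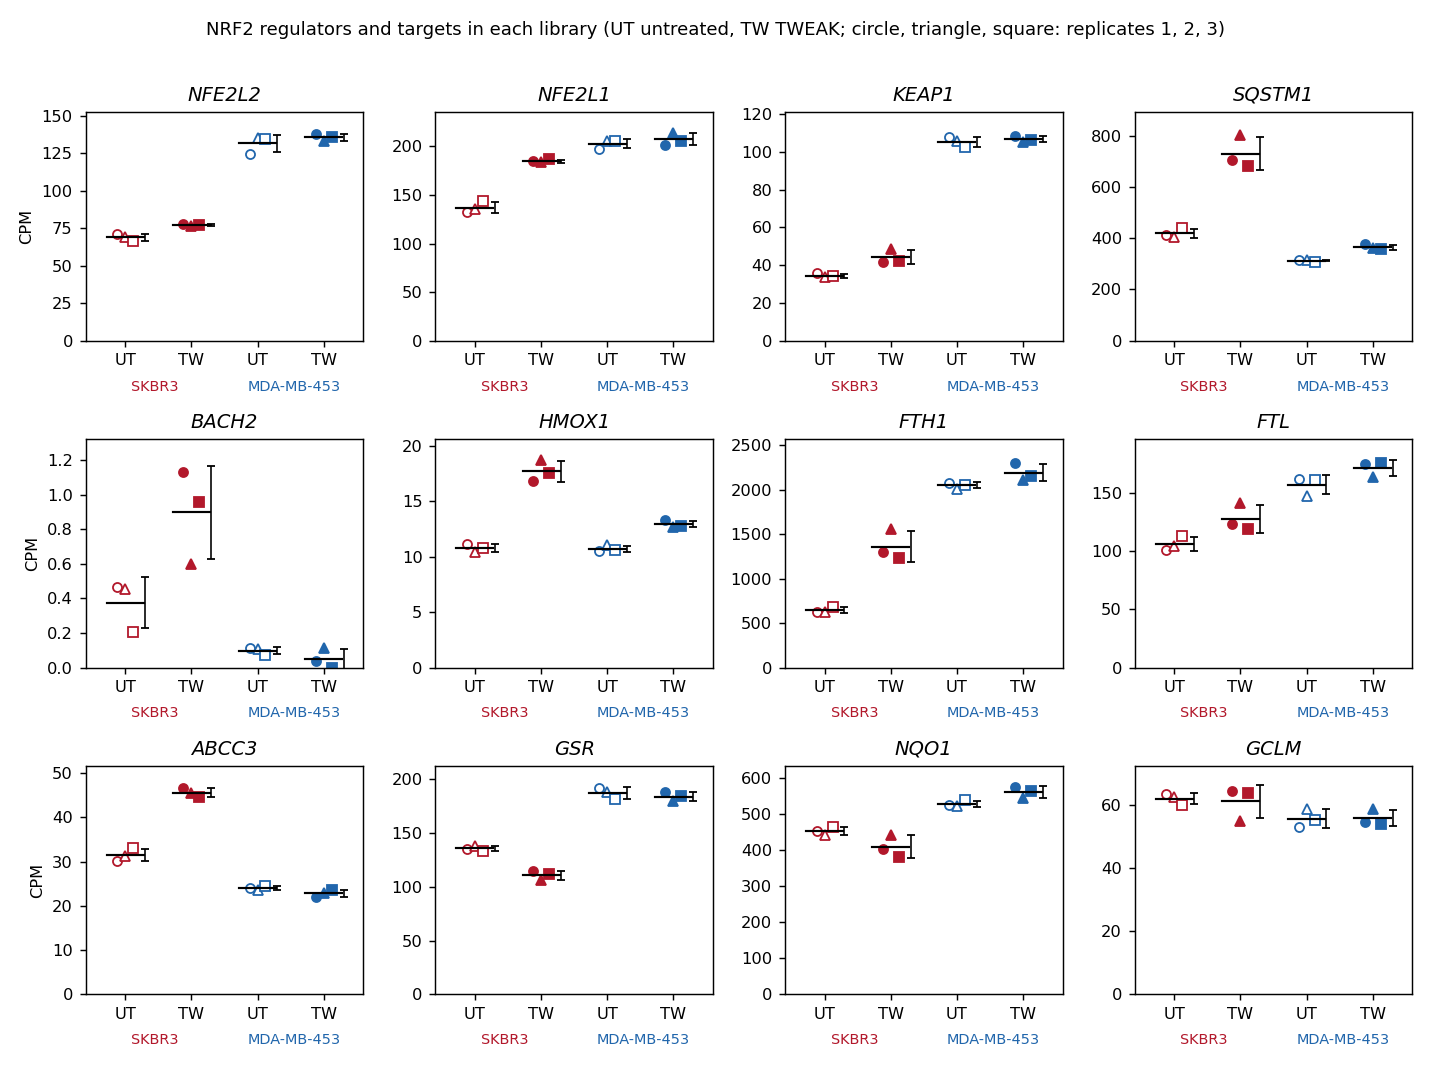
CPM (vertical axis, from 0) of 12 members in each library, with untreated (UT, open) and TWEAK-treated (TW, filled) replicates of SKBR3 in red and MDA-MB-453 in blue; circles, triangles and squares are replicates 1, 2 and 3, horizontal lines are means and bars beside them SD (n = 3). In SKBR3, FTH1, SQSTM1, HMOX1, ABCC3 and NFE2L1 separate without overlap, GSR lies lower with TWEAK, and NQO1 and GCLM overlap.

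Of the 6 glutathione genes, GSR fell and 5 did not pass. GSR (ENSG00000104687.14), the reductase that recycles oxidised glutathione, was at 135, 138 and 133 CPM in untreated and 114, 106 and 111 CPM in TWEAK-treated replicates. All treated libraries were below all untreated ones, and the log2 fold change was -0.30 ± 0.06 (edgeR quasi-likelihood, adjusted p = 0.00817). SLC7A11, the cystine importer, GCLC and GCLM, the subunits of the enzyme that limits glutathione synthesis, and the peroxidases GPX2 and GPX4 had log2 differences of -0.12, -0.14, -0.03, -0.07 and 0.21. GCLC had a treated group below its untreated one, at 66.0 to 68.4 CPM without and 54.3 to 64.1 CPM with TWEAK (-0.14 ± 0.07, edgeR adjusted p = 0.32). GCLM overlapped at 59.9 to 63.3 and 54.9 to 64.4 CPM (-0.03 ± 0.07, edgeR adjusted p = 0.886).

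None of the 4 thioredoxin genes or the 3 pentose phosphate genes passed in SKBR3. TXN, thioredoxin itself, had a log2 difference of 0.18 ± 0.09 with groups that did not overlap, and its reductase TXNRD1 one of -0.13 ± 0.07. SRXN1, which repairs overoxidised peroxiredoxins, and PRDX1, a peroxiredoxin, had differences of 0.0078 ± 0.12 and 0.04 ± 0.08. The pentose phosphate genes PGD, TALDO1 and TKT, on the route that supplies NADPH, had differences of 0.16 ± 0.06, 0.07 ± 0.08 and -0.01 ± 0.06, and the groups did not overlap for PGD. The smallest adjusted p of these 7 genes was 0.158, for PGD, in edgeR's quasi-likelihood test. These differences and their errors do not show that the genes were alike in both groups.

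Among the genes of detoxification and export, ABCC3 rose and 4 others did not pass. ABCC3 (ENSG00000108846.16, chr17:50634777-50692253), a pump for glucuronide conjugates also called MRP3, was at 30.2, 31.2 and 33.0 CPM in untreated and 46.7, 45.4 and 44.6 CPM in TWEAK-treated replicates. The groups were well separated, with a log2 fold change of 0.53 ± 0.07 (edgeR quasi-likelihood, adjusted p = 0.000447). The related pumps ABCC1 and ABCC2 had log2 differences of 0.07 ± 0.10 and -0.36 ± 0.18, the epoxide hydrolase EPHX1 0.12 ± 0.08, and UGDH, which makes the glucuronide donor, 0.16 ± 0.07. AKR1C1 and AKR1B10, reductases of carbonyls and steroids, had differences of -0.16 ± 0.20 and 0.54 ± 0.31 on counts of 36 or fewer per library, and AKR1C2 and AKR1C3 had at most 4 counts in any SKBR3 library and were not tested. SOD1, SOD2 and CAT, which remove superoxide and peroxide, had differences of 0.07 ± 0.09, 0.14 ± 0.06 and -0.06 ± 0.06. SOD2, a known target of NF-κB, had groups that did not overlap, at 160 to 172 and 179 to 186 CPM, with an adjusted p of 0.184 in edgeR's test. OSGIN1, a growth inhibitor induced by oxidative stress, had a difference of -0.01 ± 0.12.

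Counted by overlap, 14 of the 37 tested members had treated SKBR3 libraries all above the untreated ones and 3 had them all below, against 26.5% of all tested genes whose groups did not overlap, 14.4% above and 12.2% below. The 14 were the 8 called genes, NFE2L2, TXN, PGD, AKR1B10, UGDH and SOD2, and the 3 were GSR, GCLC and MAFK. Without TWEAK replicate 2 these counts were 18 and 4, against 21.8% above and 19.1% below of all tested genes. TWEAK replicate 2 was the highest of the 6 SKBR3 libraries for 14 of the 37 members and the lowest for 9.

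The same comparison in MDA-MB-453 gave smaller changes, with SQSTM1 and HMOX1 higher. Of 33 tested members 2 were higher, none was lower and 31 did not pass (edgeR quasi-likelihood, adjusted p of at most 0.1), against a background of 1.49% of 14929 tested genes called, 1.29% higher and 0.208% lower. Before adjustment, 7 members were higher and 0 lower at p under 0.05 in edgeR's test. The share of all tested genes at that threshold is not given, so no excess is read from these counts. DESeq2 called 1 higher and 0 lower. The members' median log2 fold change was 0.04, against 0.0016 for all tested genes. Without TWEAK replicate 2, 10 members were higher and none lower, at a background of 13.8%, with FTH1, FTL, NQO1, TXN, PRDX1, GPX4, SOD1 and TALDO1 added, whereas without any other replicate 1 was higher. BACH2, GPX2, AKR1C1, AKR1C2, AKR1C3 and AKR1B10 had too few counts in this line to be tested.

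SQSTM1 was at 313, 314 and 309 CPM in untreated and 375, 360 and 357 CPM in TWEAK-treated MDA-MB-453 replicates. The groups did not overlap, and the log2 fold change was 0.22 ± 0.04 (edgeR quasi-likelihood, adjusted p = 0.00377), a call that was lost in the fit of all 12 libraries (adjusted p over the alternatives 1.97e-08 to 0.119). HMOX1 was at 10.6, 11.05 and 10.6 CPM in untreated and 13.3, 12.7 and 12.8 CPM in treated replicates, again with no overlap. It rose by 0.27 ± 0.07 on the log2 scale (edgeR adjusted p = 0.0801). That call held in 6 of 14 alternatives, with adjusted p from 0.0218 to 0.369, and was lost whenever any replicate other than TWEAK replicate 2 was left out.

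Of the regulators of NRF2 tested in MDA-MB-453, SQSTM1 was the one that passed. NFE2L2 was at 125, 135 and 134 CPM without and 138, 133 and 136 CPM with TWEAK, with overlapping groups (log2 difference 0.04 ± 0.04). NFE2L1 was at 198, 206 and 205 CPM and then 202, 214 and 206 CPM (0.03 ± 0.04), and KEAP1 at 108, 106 and 102 CPM and then 109, 105 and 106 CPM (0.02 ± 0.04). Both overlapped between the groups. MAFF lay at 0.669, 1.39 and 0.845 CPM and then 1.42, 1.082 and 1.31 CPM, on 18 to 48 counts per library (0.39 ± 0.25). MAFG was at 26.8, 28.8 and 27.2 CPM and then 28.2, 27.2 and 29.2 CPM (0.03 ± 0.05). MAFK was at 26.2, 28.6 and 27.7 CPM and then 28.7, 26.1 and 27.7 CPM (-0.0005 ± 0.05). The groups of all 3 small Maf genes overlapped. BACH1 had a log2 difference of -0.09 ± 0.06, with overlapping groups (edgeR adjusted p = 0.618). The adjusted p-values of the other 6 regulators in edgeR's quasi-likelihood test lay between 0.613 for MAFF and 0.9995 for MAFK.

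The other members that had moved in SKBR3 gave small values in MDA-MB-453. FTH1 was at 2081, 2011 and 2056 CPM in untreated and 2299, 2112 and 2159 CPM in treated replicates, without overlap (log2 difference 0.10 ± 0.04, edgeR adjusted p = 0.384). FTL was at 163, 148 and 161 CPM and then 175, 164 and 177 CPM, also without overlap (0.13 ± 0.04, edgeR adjusted p = 0.319). The calls on FTH1 and FTL were gained without TWEAK replicate 2 and with a replicate block, over alternatives whose adjusted p ranged from 0.0208 to 0.940 and from 0.0106 to 0.895. ABCC3 was at 24.0, 23.6 and 24.5 CPM and then 22.1, 23.0 and 23.5 CPM, with the treated group just below the untreated one (-0.07 ± 0.05, edgeR adjusted p = 0.666). GSR was at 192, 188 and 181 CPM and then 187, 179 and 184 CPM, with overlap (-0.03 ± 0.04, edgeR adjusted p = 0.833). BACH2 had 2 to 3 counts per untreated and 0 to 3 per treated library.

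Counted by overlap, 9 tested members had treated MDA-MB-453 libraries all above the untreated ones and 1, ABCC3, had them all below, against 15.1% of all tested genes, 8.19% above and 6.88% below. The 9 were the 4 quinone, haem and iron genes NQO1, HMOX1, FTL and FTH1, together with SQSTM1, EPHX1, UGDH, SOD2 and OSGIN1. Without TWEAK replicate 2, 16 lay above and 2 below, against 20.7% and 17.6% of all tested genes. NQO1, whose difference in SKBR3 had the opposite sign, was at 525, 521 and 538 CPM without and 575, 544 and 565 CPM with TWEAK (0.09 ± 0.04, edgeR adjusted p = 0.392). TWEAK replicate 1 was the highest of the 6 libraries for 20 of the 33 tested members. Of the untested genes, AKR1C2 had 1, 0 and 0 counts in untreated and 6, 3 and 6 counts in TWEAK-treated replicates. The ratio of these totals, 15 to 1, was 13.7 with a 95% exact interval of 2.10 to 576 that covers counting error only.

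Whether a member responded differently in the lines was tested with an interaction term in a fit of the 12 libraries. The response of 6 of 37 tested members was higher in SKBR3 and that of 1 was lower (edgeR quasi-likelihood, adjusted p of at most 0.1), against a background of 3.37% of 17201 genes called, 2.36% higher and 1.01% lower. Without SKBR3 TWEAK replicate 2 the counts were 7 and 2, with BACH1 and NQO1 added, at a background of 6.54%, and without MDA-MB-453 TWEAK replicate 2 they were 6 and 1, at 2.76%. The log2 difference between the responses, SKBR3 minus MDA-MB-453, was 0.98 ± 0.10 for FTH1 (adjusted p = 1.30e-05), 0.60 ± 0.08 for ABCC3 (0.000212) and 0.58 ± 0.08 for SQSTM1 (0.000335). It was 0.40 ± 0.07 for NFE2L1 (adjusted p = 0.00151), 0.44 ± 0.10 for HMOX1 (0.0189), 0.34 ± 0.08 for KEAP1 (0.0392) and -0.27 ± 0.07 for GSR (0.0416), all from edgeR's test. Thus the genes called in both lines, SQSTM1 and HMOX1, rose more in SKBR3. KEAP1 lost this call without SKBR3 untreated replicate 2 or 3, MDA-MB-453 untreated replicate 1 or MDA-MB-453 TWEAK replicate 3 and with the replicate block, and its adjusted p ranged from 0.00661 to 0.117. GSR lost it without SKBR3 untreated replicate 2, without MDA-MB-453 untreated replicate 2 or 3 or TWEAK replicate 1 or 3 and with the block (0.000924 to 0.157). For FTL, whose call was in SKBR3 alone, the responses differed by 0.14 ± 0.09 (edgeR adjusted p = 0.656), so a difference between the lines was not shown. The same holds for BACH2 (adjusted p = 0.369), NFE2L2 (0.12 ± 0.07, adjusted p = 0.591) and, with all libraries, for NQO1 (-0.24 ± 0.07, adjusted p = 0.136) in that edgeR fit.

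**Figure D3:**
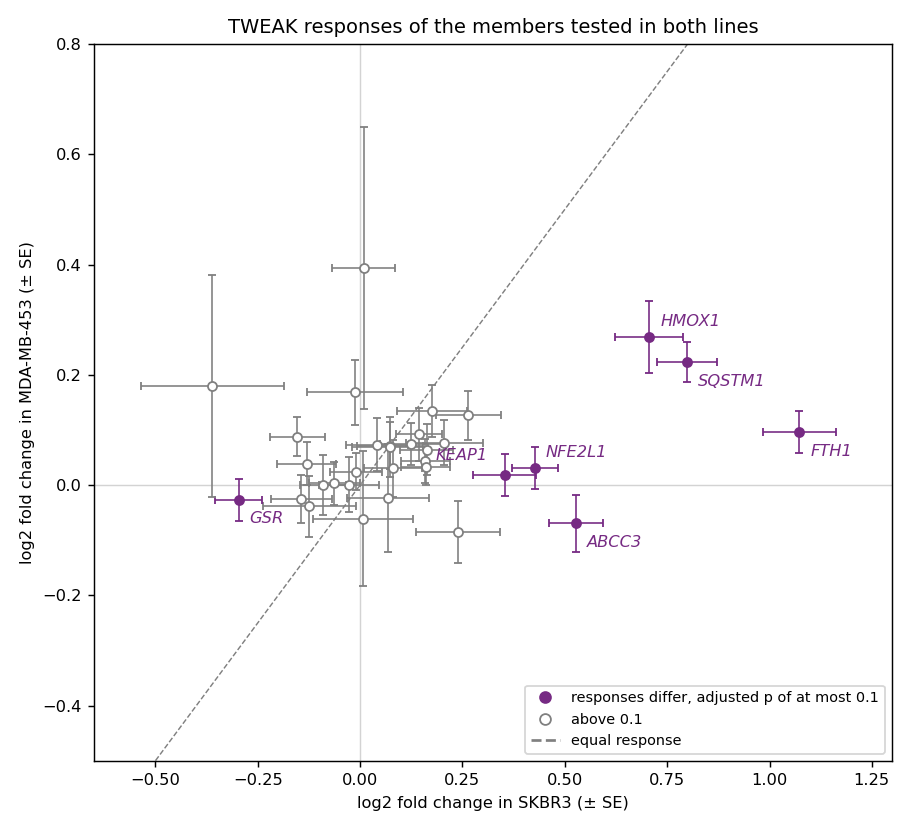
Log2 fold change with TWEAK in SKBR3 (horizontal axis) against MDA-MB-453 (vertical axis), each ± SE, for the 33 members tested in both lines; purple points have a response that differed between the lines (adjusted p of at most 0.1), and the dashed line marks an equal response. FTH1, SQSTM1, HMOX1, ABCC3, NFE2L1 and KEAP1 lie to the right of the dashed line and GSR to its left, while the other members are drawn open, among them MAFF at 0.39 in MDA-MB-453 and ABCC2 at -0.36 in SKBR3 with wide errors.

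The untreated groups were then compared, since the lines started from unlike levels. Of 37 tested members, 22 were higher in SKBR3, 14 were lower and 1, HMOX1, did not pass (edgeR quasi-likelihood, adjusted p of at most 0.1). The 36 calls are 97.3% of the tested members, against a background of 84.2% of 17201 tested genes, 43.5% higher and 40.7% lower. With most genes called between these lines, a call here sets no single member apart. The median log2 difference of the members was 0.42 and that of all tested genes 0.03, and the former was the same with genes absent from a line set at their bound. Offsets for GC content and length moved the median of all genes to -0.27 in this comparison, and differences near 0 depend on that choice.

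NFE2L2 and KEAP1 were both lower in untreated SKBR3, the latter by more. The log2 difference, SKBR3 minus MDA-MB-453, was -0.93 ± 0.05 for NFE2L2, -0.57 ± 0.05 for NFE2L1 and -1.61 ± 0.06 for KEAP1 (edgeR adjusted p = 6.7e-12, 3.75e-09 and 4.9e-14). In contrast, all 3 small Maf genes were higher in SKBR3. MAFF differed by 4.46 ± 0.14, MAFK by 2.60 ± 0.05 and MAFG by 1.10 ± 0.06 (edgeR adjusted p = 4.49e-15, 1.92e-17 and 1.65e-11), with no overlap of the libraries given above. BACH1 was higher by 0.47 ± 0.09 in SKBR3. SQSTM1 was higher by 0.42 ± 0.06, but its difference turned to -0.06 with offsets for GC content and length.

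The target genes did not share a direction between the lines. All 4 thioredoxin genes were higher in SKBR3, by 0.73 ± 0.07 for TXN, 1.25 ± 0.06 for TXNRD1, 0.98 ± 0.12 for SRXN1 and 0.90 ± 0.07 for PRDX1. TXNRD1, for example, was at 542, 563 and 526 CPM in untreated SKBR3 and 219, 232 and 232 CPM in untreated MDA-MB-453. SOD2, the mitochondrial superoxide dismutase, was at 160, 172 and 162 CPM against 32.4, 34.0 and 32.9 CPM (2.31 ± 0.05). The ferritin chains were lower in SKBR3, FTH1 by a log2 difference of -1.67 ± 0.07 and FTL by -0.57 ± 0.07. TWEAK-treated SKBR3 thus remained below untreated MDA-MB-453 in FTH1, at 1227 to 1556 against 2011 to 2081 CPM. Of the glutathione genes, GCLC, GCLM and GPX2 were higher in SKBR3 and SLC7A11, GSR and GPX4 lower. The difference of GCLM was 0.15 ± 0.07 (edgeR adjusted p = 0.0383), and its call held in 16 of 20 alternatives (adjusted p 0.00411 to 0.816), being lost without untreated replicate 1 of either line and with the offsets, with or without a replicate block. HMOX1 differed by 0.01 ± 0.07 (edgeR adjusted p = 0.883), with 10.4 to 11.2 CPM in SKBR3 and 10.6 to 11.05 CPM in MDA-MB-453, and by -0.46 with the offsets, where it was called lower.

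Some members were at or near the limit of detection in MDA-MB-453. GPX2, a peroxidase typical of gut epithelium, had 657 counts over the untreated SKBR3 replicates and 1 over those of MDA-MB-453, a ratio of 703 with a 95% exact interval of 126 to 27814 that covers counting error only. AKR1C1 had 0 counts in every untreated MDA-MB-453 library, and against 3 counts per library it was at least 11.6-fold higher in SKBR3, at 1.201 to 1.36 CPM. AKR1B10 had 15, 14 and 7 counts against 2, 1 and 1, and BACH2 13, 11 and 5 against 3, 3 and 2.

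**Figure D4:**
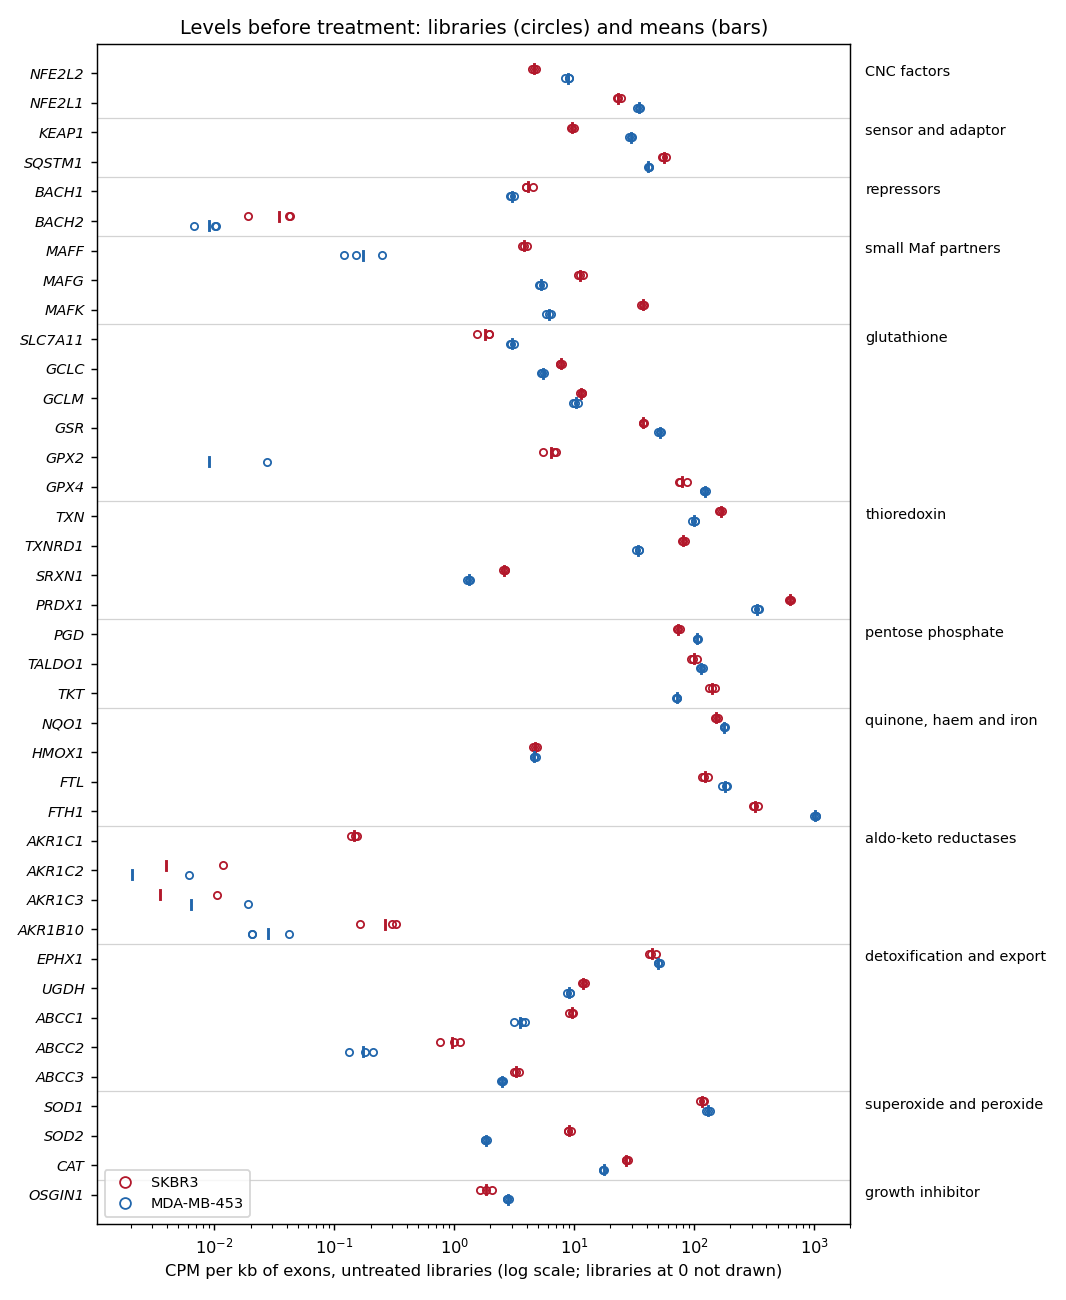
CPM per kilobase of exons (horizontal axis, log scale) of all 39 members in untreated SKBR3 (red) and MDA-MB-453 (blue), with circles for libraries and bars for means; libraries at 0 are not drawn. MAFF, MAFK, GPX2 and SOD2 lie well to the right in SKBR3, KEAP1 and FTH1 in MDA-MB-453, and HMOX1 coincides at 4.69 and 4.65.

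Per kilobase of exons, the highest members in untreated SKBR3 were PRDX1 at a mean of 629 CPM per kilobase, FTH1 at 321, TXN at 165, NQO1 at 153, TKT at 140, FTL at 122 and SOD1 at 117. Neighbours in this order were apart in all 3 libraries except FTL and SOD1, whose ranges overlapped. In untreated MDA-MB-453, FTH1 led at 1023, before PRDX1 at 337, FTL at 181, NQO1 at 178, SOD1 at 130 and GPX4 at 122, and the ranges of FTL and NQO1 overlapped. With TWEAK, FTH1 reached 679 CPM per kilobase in SKBR3, beside PRDX1 at 649, with overlapping ranges. Among the regulators in untreated SKBR3, SQSTM1 was at 55.5, MAFK at 37.3, NFE2L1 at 23.3, MAFG at 11.3, KEAP1 at 9.64, NFE2L2 at 4.60, BACH1 at 4.14, MAFF at 3.83 and BACH2 at 0.0346. In untreated MDA-MB-453 the order was SQSTM1 at 41.4, NFE2L1 at 34.5, KEAP1 at 29.5, NFE2L2 at 8.78, MAFK at 6.15, MAFG at 5.27, BACH1 at 2.995, MAFF at 0.172 and BACH2 at 0.009. These orders rest on the length of all annotated exons of a gene together, which can exceed that of the transcripts expressed. TKT, with 9502 bases against 1682 for PRDX1, had the higher mean CPM in untreated SKBR3, 1335 against 1057. NFE2L2, with 14975 bases against 3573 for KEAP1, was there at a mean of 68.9 against 34.4 CPM. Libraries that lie apart do not remove this dependence on length.

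A further 73 genes of the NRF2 pathway, listed from general knowledge and holding none of the 39, were read from the same fits. In SKBR3, 6 of 65 tested were higher and 3 lower, which is 13.8% called against 10.4% of all tested genes. Without TWEAK replicate 2, 10 were higher and 10 lower, against 17.4%. With all libraries their median log2 fold change was -0.01. Of the 9 quinone, haem and iron genes in this list, all tested, 0 were higher and 1, SLC40A1, was lower. The largest rises were those of TRIM16L (1.32 ± 0.12), TRIM16 (0.82 ± 0.09), a ligase that stabilises NRF2, and NFE2L3 (0.81 ± 0.06), another relative of NRF2 (edgeR adjusted p = 4.46e-05, 0.000141 and 1.24e-05). TRIM16 was at 29.1, 29.0 and 30.8 CPM without and 49.9, 59.6 and 48.4 CPM with TWEAK, and NFE2L3 at 37.2, 39.8 and 36.9 and then 67.0, 67.2 and 66.5 CPM. The groups did not overlap. The falls were those of the iron exporter SLC40A1 (-0.30 ± 0.08), the pump ABCC5 (-0.28 ± 0.08) and BTRC (-0.26 ± 0.08), a ligase subunit that marks NRF2 for degradation (edgeR adjusted p = 0.0578, 0.0681 and 0.0998). These 3 calls were lost when untreated replicate 1 or 2 was left out, that of ABCC5 also without untreated replicate 3, that of SLC40A1 also with a replicate block, and that of BTRC held in 4 of 14 alternatives. None of the 3 passed at an adjusted p of 0.05. PIR, RXRA and MGST1 were the remaining genes called higher, PIR not without untreated replicate 1 or 3 and MGST1 in 6 of 14 alternatives. In MDA-MB-453, 2 of 58 tested were higher, TRIM16L (0.53 ± 0.06) and TRIM16 (0.30 ± 0.05), and none lower (edgeR adjusted p = 0.000188 and 0.00462), 3.45% called against 1.49% of all tested genes. At an unadjusted p under 0.05, 8 of these genes were higher and 6 lower in that line. The share of all genes at that threshold is not given here or for the interaction, so no excess is read from such counts. DESeq2 called 0 lower in MDA-MB-453. Without MDA-MB-453 TWEAK replicate 2, 15 were higher and 6 lower, against 13.8% of all tested genes, the 6 being ABCC5, SLC40A1, CHAC1, GSK3B, CREBBP and EP300. There were 4 lower with a replicate block or no filter on low counts and 6 with block and offsets. The share of all genes called also rose with the block and with block and offsets, as given in the last section. With no filter that share was 1.45%, 0.911% higher and 0.537% lower. By the interaction test 4 of 66 tested, or 6.06% against 3.37% of all genes, responded more in SKBR3 and none less, where 0 were lower at an unadjusted p under 0.05 and DESeq2 called 0 lower. Without SKBR3 TWEAK replicate 2, 5 responded more and 4 less, and without MDA-MB-453 TWEAK replicate 2 these counts were 3 and 0. The share of all genes called was higher in the former refit and lower in the latter, as given above for the members. The 4 genes were TRIM16L (0.79 ± 0.13), TRIM16 (0.53 ± 0.10), PIR (0.42 ± 0.11) and RXRA (0.36 ± 0.07), with edgeR adjusted p of 0.002, 0.00693, 0.051 and 0.00906. The call on PIR held in 12 of 19 alternatives (adjusted p 0.02 to 0.151) and was lost without SKBR3 untreated replicate 1 or 3 or TWEAK replicate 1 and without MDA-MB-453 untreated replicate 1 or 2 or TWEAK replicate 2 or 3. NFE2L3, called in SKBR3 alone, had a log2 difference of 0.74 ± 0.27 in MDA-MB-453 (edgeR adjusted p = 0.339). Its groups there did not overlap, on 11 to 42 counts per library. Its responses differed by 0.07 ± 0.25 (edgeR adjusted p = 0.986), so a difference between the lines was not shown. Between the untreated lines 28 of 66 tested were higher in SKBR3 and 31 lower (89.4% called against 84.2% of all genes), with a median log2 difference of -0.05, and of the 10 thioredoxin genes in this list 4 were higher and 5 lower. TRIM16 and TRIM16L are near-identical copies between which reads may have been split. The values of TRIM16L are those of an entry annotated as a long non-coding RNA (ENSG00000291110.1). A pseudogene entry of the same name, which lies within it, had 0 counts in every library. TRIM16 shares 23.5% of its exonic bases with a gene model on its own strand, at group means of 0.103 to 1.53 CPM.

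Some of these levels may hold reads of neighbouring or similar genes, since neither the strand setting nor the rule for multi-mapping reads is given in the sources used here. Of the exonic bases of FTH1, 63.2% are overlapped by BEST1 on the opposite strand, which held at most 66 counts in any library. For SQSTM1 the overlap is 21.0% with MRNIP, for NFE2L2 23.4% with HNRNPA3, for PRDX1 29.8% with MMACHC and for MAFK 18.1% with TMEM184A, all on the opposite strand. HNRNPA3 was at group means of 306 to 646 CPM, above those of NFE2L2 at 68.9 to 136 CPM, and TMEM184A at 48.0 to 112 CPM. Group means lay between 22.8 and 36.2 CPM for MRNIP and between 18.4 and 24.0 CPM for MMACHC. Of the pathway gene NFE2L3, 28.1% of the exonic bases are overlapped by HNRNPA2B1, at 1426 to 1682 CPM, on the opposite strand. Between the untreated lines, the mean of each of these 5 genes was higher in the line where the gene it overlaps was higher, which is MDA-MB-453 for HNRNPA3 and SKBR3 for TMEM184A, MRNIP, MMACHC and HNRNPA2B1, although SQSTM1, which MRNIP overlaps, turned with the offsets. NFE2L3 was at 36.9 to 39.8 CPM in untreated SKBR3 and 0.404 to 0.892 CPM in untreated MDA-MB-453. The means of HNRNPA2B1 in these groups were 1618 and 1426 CPM. What share of these reads was counted to a member was not tested. SRXN1 shares 90.7% of its exonic bases with a gene model on its own strand that had 0 counts in every library. The ferritin genes have many processed pseudogenes, and the AKR1C genes are close copies of each other, so that their counts are uncertain.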

How the data were processed

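Poly-A RNA-seq of 2 cell lines, 12 libraries in all, was analysed. Per the labels and the study's methods, the authors trimmed reads with Trimmomatic, mapped them to hg38 with STAR and deposited raw gene counts from featureCounts, which carry no normalisation; versions, annotation release, strand setting and multi-mapping rule are not given in the sources used here. The labels name a DNA library kit and the methods a directional RNA kit. Every count column carries the name of a labelled sample. Symbols, positions and exonic lengths were taken from GENCODE release 44 (GRCh38), by Ensembl identifier.

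Genes were filtered with filterByExpr, scaled by TMM and tested with edgeR 4.0.16 (quasi-likelihood, two-sided) in R 4.3.3, with Benjamini-Hochberg adjustment over all tested genes and a threshold of 0.1. The design held 6 libraries for TWEAK against untreated within a line, and 12 libraries in 4 groups for the untreated lines and the interaction. SE is the log2 fold change divided by the root of the F statistic. With 3 replicates per group an exact permutation test cannot go below 0.1, so none is given. Alternatives were DESeq2 size factors, DESeq2 1.42.0, tests without a filter, a minimum of 10 counts in all libraries, a replicate block, offsets for GC content and length, both together, an adjusted p of 0.05, another set of libraries in the fit and each library left out. Counts of groups that do not overlap without TWEAK replicate 2 were added after seeing the data.

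Values by library are given for members called in either line or in the interaction, and for NFE2L2, KEAP1 and the small Maf genes; other members are given by counts and ranges. Values of BACH1, NQO1, GCLC, GCLM, TXNRD1 and SOD2, and of the pathway genes PIR and RXRA, were added after they had been seen. Of the other pathway genes, the 3 largest and 3 smallest log2 fold changes in each line are named among those called with a mean of at least 1 CPM and groups that do not overlap. The members, the gene lists and the tests were chosen with earlier results of these data known. Library totals lay between 24773003 and 35208304 counts, at which 3 counts stand for 0.0818 to 0.125 CPM; intervals cover counting error only, since no molecular identifiers were used.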

Additional observations from a re-analysis of the deposited data

Results flagged for a closer look

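The TWEAK responses of 7 members and 4 other pathway genes differed between SKBR3 and MDA-MB-453 by the interaction test (edgeR quasi-likelihood, adjusted p of at most 0.1). On the log2 scale, SKBR3 minus MDA-MB-453, the difference was 0.98 for FTH1, 0.60 for ABCC3, 0.58 for SQSTM1, 0.44 for HMOX1, 0.40 for NFE2L1, 0.34 for KEAP1 and -0.27 for GSR. It was 0.79 for TRIM16L, 0.53 for TRIM16, 0.42 for PIR and 0.36 for RXRA. FTH1, the largest of the members, started lower in SKBR3 (625, 623 and 685 CPM against 2081, 2011 and 2056 CPM in untreated libraries), as did KEAP1, NFE2L1 and GSR, whereas SQSTM1 and ABCC3 started higher, except with offsets for GC content and length. The causes were not tested.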

How the results depend on the processing

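In SKBR3, FTH1, SQSTM1, HMOX1, ABCC3, NFE2L1 and GSR kept their direction and call under every alternative run. Of the 8 members called higher in SKBR3 as reported, BACH2 and FTL (edgeR adjusted p = 0.0695 and 0.0745) did not pass at 0.05. Members called higher were 14 in 1 fit of all 12 libraries and 5 to 14 with 1 library left out. Those called lower, 1 as reported, were 2 with no filter on low counts or with all 12 libraries, 3 with offsets for GC content and length, with or without a replicate block, and 1 to 2 with 1 library left out. The share of all genes called, 10.4% as reported, moved as well, to 14.97% with all 12 libraries, 5.87% with no filter, 18.5% with the offsets (7.905% higher and 10.6% lower, against 6.6% and 3.82% as reported), 15.3% with block and offsets (6.85% and 8.43%) and 5.76% to 17.4% with 1 library left out. In MDA-MB-453, 2 higher as reported became 1 at an adjusted p of 0.05, in DESeq2 or with the offsets, 6 with a replicate block, 5 with block and offsets, 0 with all 12 libraries and 1 to 10 with 1 library left out. The share of all genes called there, 1.49% as reported, was 1.12% at 0.05, 1.37% in DESeq2, 2.34% with the offsets, 5.99% with the block, 7.84% with both, 0.837% with all 12 libraries and 0.863% to 13.8% with 1 library left out. For the interaction, 1 member called lower became 2 in DESeq2, with no filter or with the offsets, with or without the block, and 0 with the block alone, and 0 to 2 with 1 library left out, at 1.66% to 6.54% of all genes called against 3.37% as reported. Between the untreated lines, counts stayed within 18 to 22 higher and 12 to 15 lower. The share of all genes called there was 84.2% as reported, 43.5% higher and 40.7% lower. It was 42.6% with no filter, 77.3% with the block, 87.2% with the untreated libraries alone and 81.5% to 85.6% with 1 library left out. With the offsets it was 86.7%, 34.4% higher and 52.3% lower, and with block and offsets 81.3%, 32.2% higher and 49.1% lower. Of the fits that leave out 1 library, the one without TWEAK replicate 2 gave the highest counts in both TWEAK comparisons, and the cause was not tested. Between the untreated lines ABCC3 and SQSTM1, higher in SKBR3, turned to -0.064 for both with the offsets, and to -0.061 and -0.11 with block and offsets; HMOX1, not called, turned to -0.46 and -0.40 and was called. Of 1389 values of named genes under the alternatives, 1309 kept their side of the threshold, 57 lost and 17 gained a call, and 6 turned; 20 of the first kind had no call and changed sign near 0. Replicate numbers were not taken to pair the libraries, since no label says that a number marks a shared day and not every correlation exceeded 0.1: same-numbered untreated and treated replicates correlated at 0.115, -0.097 and -0.161 in SKBR3 and, in MDA-MB-453, at 0.086, 0.083 and 0.025. In MDA-MB-453, not in SKBR3, every library correlated best with its own number, which is a hint from the data, and the block raised the share of all genes called there, as given above. The study says that cell line experiments were run on separate days without saying which number is which day, so the replicate block is given for completeness, with 7 higher and 1 lower in SKBR3. With the block alone, 7.73% of all tested genes were called in SKBR3, 5.26% higher and 2.47% lower. Depth limits BACH2, MAFF in MDA-MB-453 and the AKR1 genes, which rest on few counts.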
